A study of Mus musculus with 6 samples.

Results

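The clock repressors examined here are the period genes Per1, Per2 and Per3, the cryptochromes Cry1 and Cry2, Ciart, and Bhlhe40 and Bhlhe41, which are also called Dec1 and Dec2. They are 8 of the 37074 gene names on the array and were taken by symbol, with every probe that carries one of these names, which gave 17 probes of 60 bases. In the circadian clock, CLOCK and BMAL1 (the product of Arntl) bind E-box elements and activate transcription, and the products of the genes described here accumulate and repress that activity, so that each cell keeps a daily rhythm. PER and CRY proteins form the main repressive complex, CIART binds to BMAL1, and DEC1 and DEC2 occupy E-boxes themselves. The hypothalamus holds the central pacemaker, the suprachiasmatic nucleus, and other nuclei with rhythms of their own.

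RNA of the hypothalamus of male C57BL/6J DIO mice, whose obesity was induced by feeding 60 kcal% fat for 16 weeks from 6 weeks of age, was measured on 6 one-colour Agilent SurePrint G3 mouse arrays, each carrying 1 RNA sample, of which 3 are labelled GSK-J4 and 3 vehicle. GSK-J4 is a small molecule that inhibits Kdm6a and Kdm6b, the enzymes that take methyl groups off H3k27me3. It was injected daily at 30 mg kg−1 at ZT 2 h in 2% DMSO and water, under 12 h of light and 12 h of darkness. Hypothalami were taken at ZT 6 h (hours are counted from lights on), so that the values describe 1 time of day and no rhythm. The deposited design places the arrays on day 4 and the study describes a course of 21 d, and it names a different mouse for each of 3 experiments. The animals carry no genetic change, the diet was shared by both groups, and the inhibitor was given to the whole animal.

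The 3 arrays labelled vehicle lie on one slide and were scanned together, and the 3 labelled GSK-J4 lie on the other slide, so no value below can separate the slide or the scan from the treatment: these cannot be told apart. Signals are the deposited quantile normalized log2 values, and a difference is the mean of the GSK-J4 arrays minus that of the vehicle arrays. Between 62.8% and 63.6% of the probes were well above background on the vehicle arrays and between 57.7% and 58.7% on the GSK-J4 arrays. Before normalization, the 75th percentile of the probe intensities was 787 to 916 on the vehicle arrays and 406 to 461 on the GSK-J4 arrays. Probes that stood well above background on every array of either group were tested, 34444 of 56605 in all and 16 of the 17 clock repressor probes. The test was limma with Benjamini-Hochberg adjustment over all 34444 probes, and a probe was called at an adjusted p of at most 0.05. A second rule took the thresholds of the study's methods, a change of at least 1.5-fold and an unadjusted p of at most 0.05, with the p from limma in place of the methods' t-test. All directions follow the deposited labels, and those of the called probes of Cry1, Clock and Rora are opposite to the directions the study describes for these genes. The study describes Cry1 and Clock from its arrays, and Cry1, Clock and Rora from real-time PCR of hypothalamus. The called probes of Clock and Rora are not the brightest of these genes, which had differences of 0.02 and 0.42 and were not called.

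The tissue label was checked against marker genes. Of the 8 hypothalamus markers, Npy, Cartpt, Pomc, Hcrt, Oxt and Agrp passed the filter. Pmch and Trh were well above background on 1 vehicle array and 2 GSK-J4 arrays, as was Avp of the 8 suprachiasmatic markers. Six6 of the suprachiasmatic list was above background on 0 arrays. The markers of cortex and hippocampus, among them Neurod6, Neurod2 and Tbr1, passed the filter. The summed level of 6 measured hypothalamus markers was 11.75 to 11.88 on the log2 scale on the vehicle arrays and 12.24 to 12.38 on the GSK-J4 arrays. That of the cortex and hippocampus markers was 14.58 to 14.68 against 14.43 to 14.52, and that of 4 microglia markers 12.54 to 12.72 against 12.92 to 12.98, and none of these 3 lists overlapped between the groups. The summed level of 6 choroid plexus markers was 16.73 on vehicle array 1, compared with 11.54 and 11.66 on the other vehicle arrays and 11.45 to 13.55 on the GSK-J4 arrays. The 6 measured suprachiasmatic markers (11.92 to 12.35 against 12.23 to 12.72) and the markers of neurons, astrocytes, oligodendrocytes, endothelium and pituitary overlapped between the groups, and Gh and Prl of the pituitary were above background on 0 arrays. In bulk tissue, fewer cells of a type and less RNA per cell cannot be told apart, and the part of tissue composition in the differences below was not tested.

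Of the 16 probes tested, 1 was called higher in the GSK-J4 arrays, a probe of Cry1, and 4 were called lower, all 3 probes of Per3 and 1 of 2 probes of Per2. This was 6.25% higher and 25% lower, compared with 8.39% of all tested probes called higher and 8.42% called lower. At the thresholds of the study's methods 1 probe was higher, again of Cry1, and 2 were lower, both of Per3, where 4.79% and 7.86% of all tested probes passed. The groups did not overlap for 10 of the 16 probes, with the GSK-J4 arrays above in 3 and below in 7, and 45.6% of all tested probes did not overlap either. The median difference of the 16 probes was −0.21, and that of all tested probes was 0.02. Removing any 1 of the 3 vehicle arrays left 0 of the 5 calls by adjusted p and 5 to 13 calls among all tested probes, whereas the thresholds of the methods still gave 2 of the probes lower in each case. Removing GSK-J4 array 1 or array 2 left 1 probe called higher and 1 lower.

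**Figure D1:**
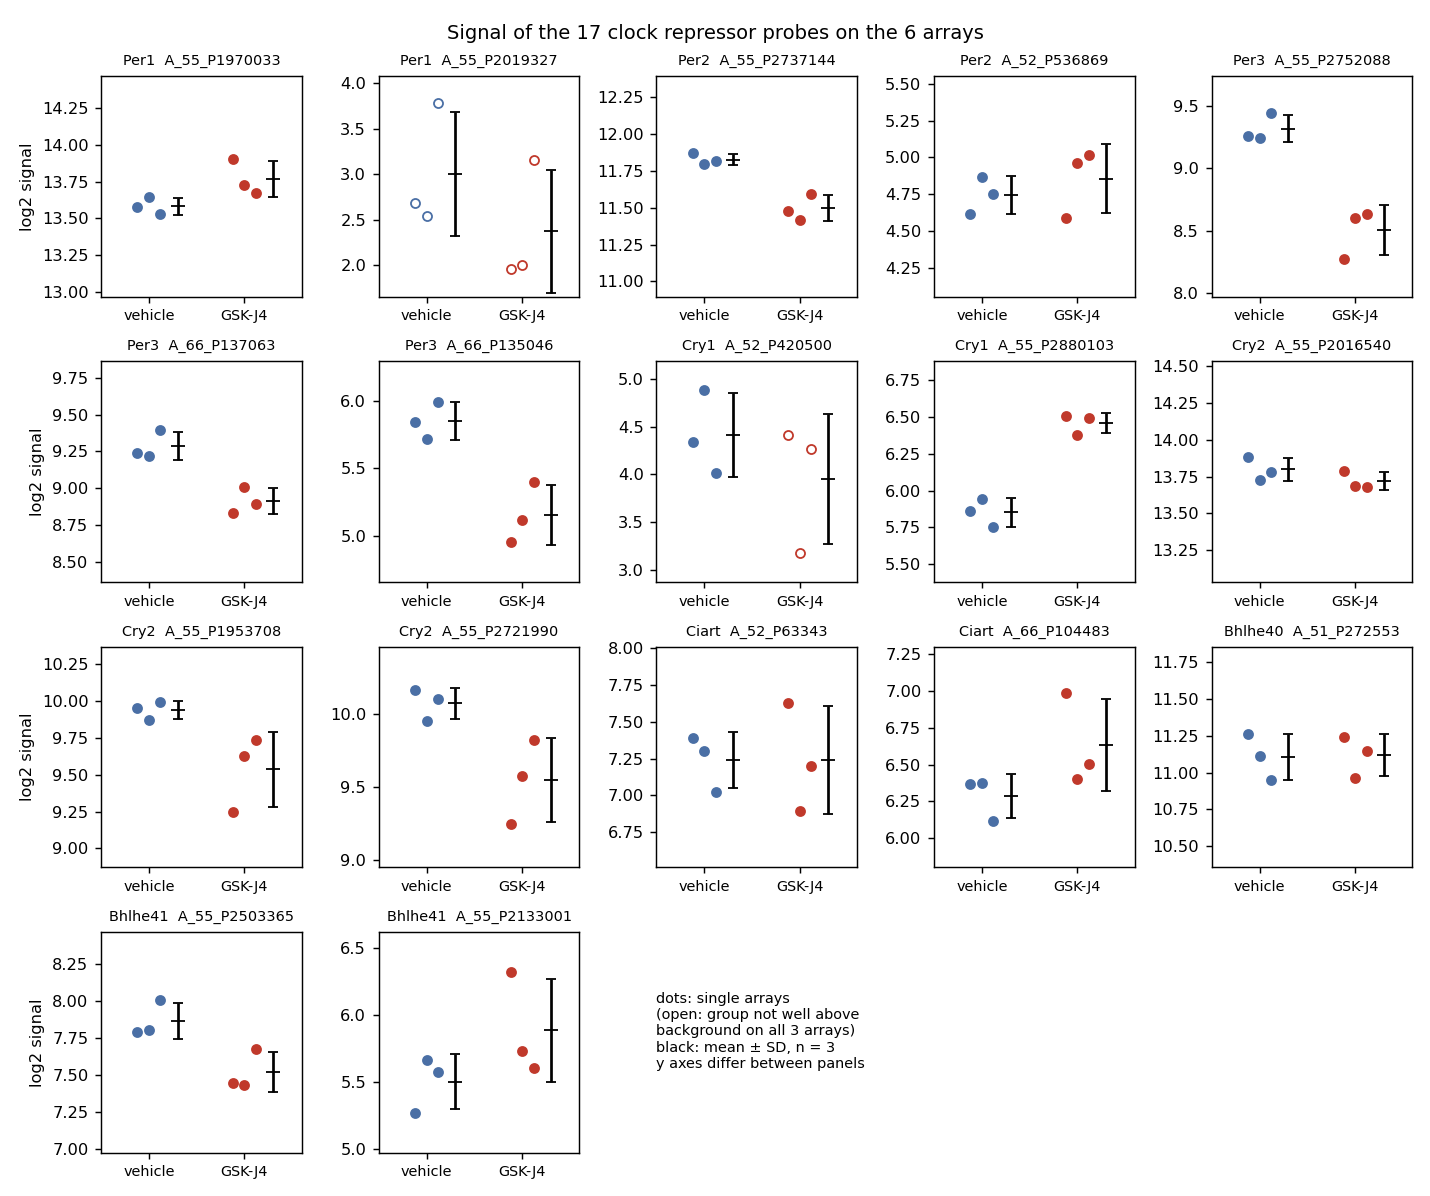
Deposited log2 signal of each of the 17 probes on the 3 vehicle and the 3 GSK-J4 arrays, with the mean ± SD of each group in black (n = 3) and with y axes that differ between panels. The GSK-J4 arrays lie below the vehicle arrays in all 3 panels of Per3 and above them in 1 of the 2 panels of Cry1, and open symbols mark a group in which not all 3 arrays were well above background.

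All 3 probes of Per3 were called lower, with differences of unequal size. The 3 probes of Cry2 were also lower in mean, with none called. The product of Per3 is a partner of PER1 and PER2 in the repressive complex that is less needed for the rhythm itself. The array holds 3 Per3 probes on the minus strand of chromosome 4 (mm9), at 150378473 to 150378532, at 150385608 to 150385667 and at 150406022 to 150406081, so that the third lies 27.5 kb upstream of the first in the direction of transcription. They were designed on the records NM_001289878, ENSMUST00000138584 and NM_011067, and exon or UTR positions are not given in the sources used here. Their base composition differs, with 45% G and C in the first, 56.7% in the second and 35% in the third. The first 30 of their 60 bases are printed with G and C in capitals and A and T in lower case, because the differences were also compared with base composition.
Per3 A_55_P2752088: ttaaGatGCtGCCtGtGaCatttCttGGaG
Per3 A_66_P137063: tttaGaCaGtCGtaaGCtGCCaCGtGtGGG
Per3 A_66_P135046: taaaaGaatttttaCCaCaaCaCaCaCtCC

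The Per3 probe nearest to the 3′ end, A_55_P2752088, gave log2 signals of 9.26, 9.24 and 9.44 on the vehicle arrays and of 8.27, 8.60 and 8.64 on the GSK-J4 arrays. Every GSK-J4 array was below every vehicle array, and the first GSK-J4 array was the lowest of all. The difference was −0.81 (standard error 0.13, limma adjusted p = 0.0197), which is 1.76-fold lower. The middle probe, A_66_P137063, gave 9.24, 9.22 and 9.39 on the vehicle arrays and 8.83, 9.01 and 8.90 on the GSK-J4 arrays. Again no GSK-J4 array reached the lowest vehicle array, and the difference was −0.37 (standard error 0.09, limma adjusted p = 0.0418).

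The probe farthest upstream, A_66_P135046, gave 5.84, 5.71 and 5.99 on the vehicle arrays and 4.96, 5.12 and 5.40 on the GSK-J4 arrays. The groups were separate here as well, with a difference of −0.69 (standard error 0.14, limma adjusted p = 0.0307) or 1.61-fold lower. Of the 3 Per3 probes, those at the ends passed 1.5-fold and the middle one did not, and with normexp background correction the upstream probe gave −0.26, under 1.5-fold (adjusted p = 0.0411). The mean difference over the 3 probes was −0.63 (standard error 0.11, limma adjusted p = 0.0236 over gene means). Without vehicle array 1, the array with the high choroid plexus signal, the 3 differences were −0.84, −0.40 and −0.70, as large as with it, with adjusted p-values of 0.0658, 0.0934 and 0.0867.

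Per2, a core repressor whose loss shortens and then abolishes the rhythm of behaviour, was measured by 2 probes that did not move alike. The probe at the 3′ end (A_55_P2737144, 35% G and C, chromosome 1, 93312595 to 93312654, minus strand, mm9) gave 11.87, 11.79 and 11.82 on the vehicle arrays and 11.48, 11.42 and 11.59 on the GSK-J4 arrays. All 3 GSK-J4 arrays were lower, and the difference was −0.33 (standard error 0.08, limma adjusted p = 0.0415). With 75th percentile scaling it was −0.20 and no longer called (adjusted p = 0.108). The probe 23.9 kb upstream (A_52_P536869, 55% G and C) gave 4.61, 4.87 and 4.75 on the vehicle arrays and 4.59, 4.96 and 5.02 on the GSK-J4 arrays. The groups overlapped, with a difference of 0.11 (95% interval −0.24 to 0.46, limma adjusted p = 0.598).

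Per1, the period gene that responds quickly to light and to glucocorticoids, was measured by 1 probe. Its signals (A_55_P1970033) were 13.57, 13.65 and 13.53 on the vehicle arrays and 13.91, 13.72 and 13.67 on the GSK-J4 arrays. The GSK-J4 arrays were all above the vehicle arrays, though the third of them by little. The difference of 0.18 had a 95% interval from −0.04 to 0.41 and was not called (limma adjusted p = 0.198), but under 75th percentile scaling of each array, without quantile normalization, it was 0.46 and called (adjusted p = 0.0283). The second Per1 probe, A_55_P2019327, was well above background on 0 of the 6 arrays and was not tested.

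Cry1 gave the 1 called rise among the clock repressors, at 1 of its 2 probes, and the specificity of that probe's sequence was not checked here. CRY1 is the strongest repressor of CLOCK and BMAL1, and its mRNA peaks later than those of the period genes. The called probe, A_55_P2880103, lies on chromosome 10 at 84647094 to 84647153 (minus strand, mm9), and the other, A_52_P420500, lies 52.4 kb downstream at 84594731 to 84594790, and both were designed on the record NM_007771. They stand far apart in base composition, with 60% G and C in the called probe and 23.3% in the other, as the first 30 of their 60 bases show, again with G and C in capitals.
Cry1 A_55_P2880103: aaGGaGtGCatCCaGGGCGCCGaCaCCatC
Cry1 A_52_P420500: ttttCatGtatGGtaaaaGttaaaGttaaC

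The called probe gave 5.86, 5.94 and 5.75 on the vehicle arrays and 6.51, 6.38 and 6.49 on the GSK-J4 arrays. Each group was tight and the groups were well apart. The difference was 0.61 (standard error 0.08, limma adjusted p = 0.0173), which is 1.52-fold higher and just past the fold of the study's methods, and with normexp it was 0.34 (adjusted p = 0.021). Without vehicle array 1 it was 0.61 (adjusted p = 0.063). The other probe gave 4.33, 4.88 and 4.02 on the vehicle arrays and 4.42, 3.17 and 4.27 on the GSK-J4 arrays. It was well above background on 3 vehicle arrays and on 0 GSK-J4 arrays, so no fold is given for it and its direction is not read. Its groups overlapped (difference −0.46, 95% interval −1.42 to 0.50, limma adjusted p = 0.432).

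Cry2, the second cryptochrome, was measured by 3 probes and none was called. The probe at the 3′ end, A_55_P2016540, gave 13.89, 13.73 and 13.78 on the vehicle arrays and 13.79, 13.68 and 13.68 on the GSK-J4 arrays. These overlapped, with a difference of −0.08 (95% interval −0.27 to 0.11). The probe 7.6 kb upstream, A_55_P1953708, gave 9.96, 9.87 and 9.99 against 9.25, 9.63 and 9.73, and the probe 21.7 kb upstream, A_55_P2721990, gave 10.16, 9.95 and 10.10 against 9.25, 9.57 and 9.82. In both, all GSK-J4 arrays were below all vehicle arrays and the first GSK-J4 array was the lowest. The differences of −0.40 (95% interval −0.75 to −0.06) and −0.52 (95% interval −0.92 to −0.13) had limma adjusted p-values of 0.0981 and 0.0733. Without GSK-J4 array 3 the difference of A_55_P2721990 was −0.66 and was called (limma adjusted p = 0.0458).

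Ciart, whose product recruits histone deacetylases to CLOCK and BMAL1, was measured by 2 probes. The one at the 3′ end, A_52_P63343, gave 7.39, 7.30 and 7.03 on the vehicle arrays and 7.63, 6.90 and 7.20 on the GSK-J4 arrays, a difference of 0.00 (95% interval −0.51 to 0.51). The other, A_66_P104483, gave 6.37, 6.38 and 6.12 against 6.99, 6.40 and 6.51. Its groups were barely separate, with the second GSK-J4 array just above the second vehicle array, and the difference of 0.34 was not called (95% interval −0.09 to 0.78, limma adjusted p = 0.216).

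Bhlhe40 and Bhlhe41 encode basic helix-loop-helix repressors that compete for E-boxes. The Bhlhe40 probe, A_51_P272553, gave 11.26, 11.11 and 10.95 on the vehicle arrays and 11.24, 10.96 and 11.15 on the GSK-J4 arrays. The groups covered the same range, with a difference of 0.01 (95% interval −0.28 to 0.30). Bhlhe41 was measured by 2 probes of the same base composition, 40% G and C, 5.9 kb apart. The one at the 3′ end, A_55_P2503365, gave 7.79, 7.81 and 8.01 against 7.45, 7.43 and 7.67, with separate groups and a difference of −0.35 (95% interval −0.62 to −0.09, limma adjusted p = 0.0737). It was called with 75th percentile scaling (−0.47, adjusted p = 0.0339) and with normexp (−0.26, adjusted p = 0.0422). The other, A_55_P2133001, gave 5.27, 5.66 and 5.57 against 6.32, 5.73 and 5.60, and only the first GSK-J4 array stood clear of the vehicle arrays (difference 0.38, 95% interval −0.15 to 0.92, limma adjusted p = 0.254).

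**Figure D2:**
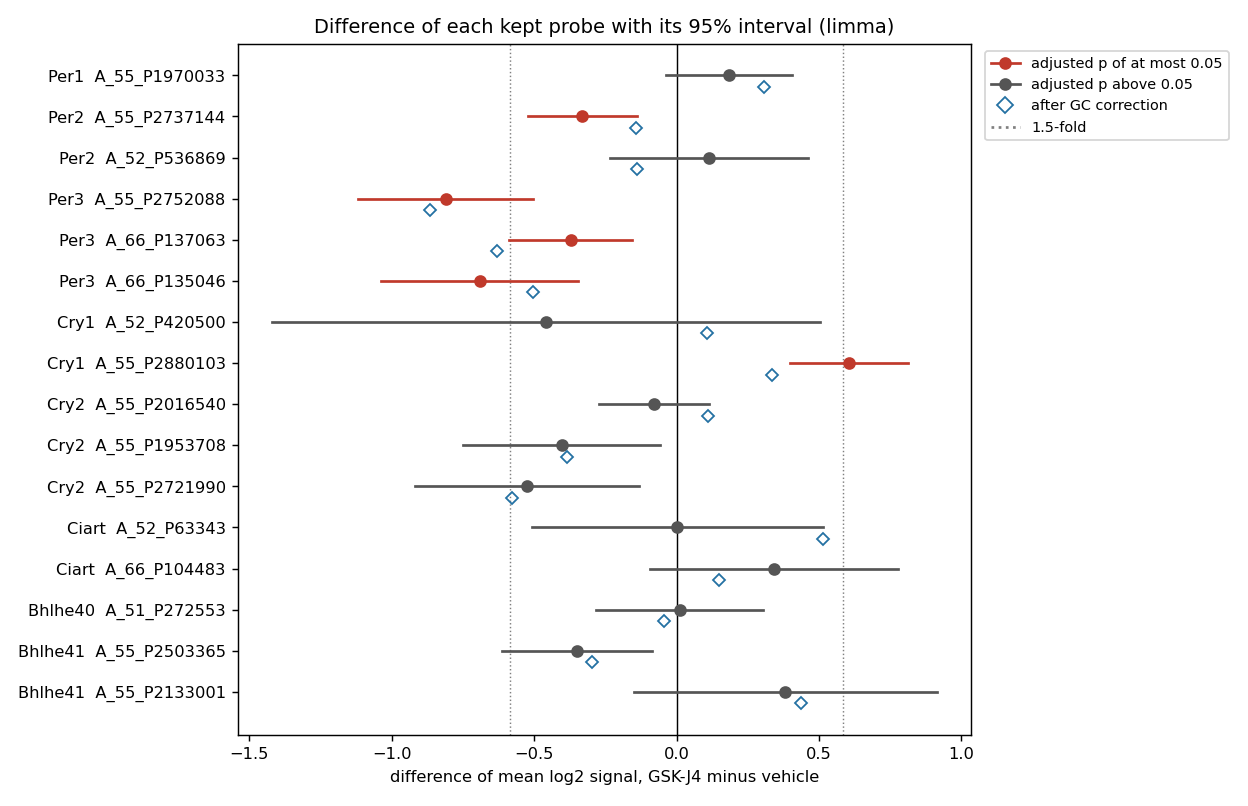
Difference of mean log2 signal, GSK-J4 minus vehicle, of the 16 tested probes (points) with 95% intervals from limma, in red where the adjusted p was at most 0.05, with dotted lines at 1.5-fold and open diamonds for the difference after correction for base composition. The 3 intervals of Per3 lie below 0 and that of 1 Cry1 probe above it, and the diamond of the called Cry1 probe lies at 0.33.

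Probes of one gene were compared with each other by their differences, since levels of different probes are not on a common scale. Over the 5 genes with at least 2 probes measured in both groups there were 9 pairs, the Cry1 pair being left out for its dim probe, and for 6 of them the arrays of the groups were separate in the signal of one probe minus that of the other. The exact permutation test of 3 arrays against 3, two-sided, gave p = 0.1 for these 6 pairs, which is the smallest it can give, so no pair could reach 0.05. The share of separate pairs over all genes of the array was not counted, so 6 of 9 is not read as a result about these genes. Among single probes, 45.6% of all tested did not overlap between the groups. The distance was 0.73 for Bhlhe41, 0.44 for Per2 and 0.34 for Ciart, each with the higher difference at the upstream probe in the deposited values. After the correction for base composition given below, the 3′ probe of Ciart had the higher difference. In Cry2 the order was opposite, as the difference of the farthest upstream probe was lower than that of the 3′ probe by 0.44 (−0.44 as upstream minus 3′). In Per3 the middle probe differed from the 3′ probe by 0.44, and the upstream probe from the 3′ probe by 0.12, with overlapping arrays (permutation p = 0.3).

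**Figure D3:**
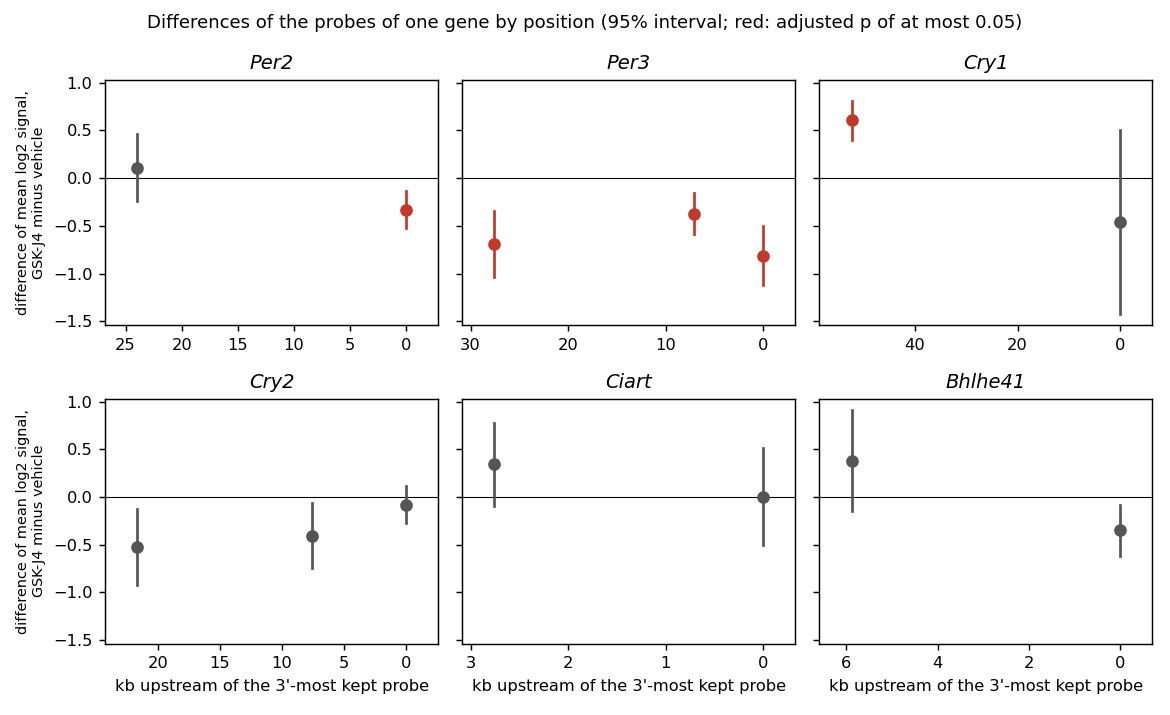
Difference of mean log2 signal, GSK-J4 minus vehicle, of each tested probe of the 6 genes with at least 2 such probes, against its distance in kb upstream of the 3′-most tested probe of the gene, with 95% intervals from limma and calls in red. The probes of Per3 share a direction along 27.5 kb, and of the Cry1 probes, 52.4 kb apart, the one at 0 kb was not above background on the GSK-J4 arrays.

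The differences also varied with the base composition of the probes across the whole array. The median difference was −0.40 over the 378 tested probes with at most 30% G and C and 0.28 over the 875 probes above 55%. Across the 34444 tested probes the Pearson correlation of G and C content with the difference was 0.32, and across the 16 clock repressor probes it was 0.31, where probes share arrays and some share a gene. A correction that removed a smooth trend on G and C content within each array (GC correction) brought the called Cry1 probe from 0.61 to 0.33 (limma adjusted p = 0.0499), under 1.5-fold, and the 3′ Per2 probe from −0.33 to −0.14 (adjusted p = 0.287). For Per3 the 3 differences became −0.87, −0.63 and −0.50, with adjusted p-values of 0.0236, 0.0265 and 0.0758. The 2 probes of Per2 then had the same difference, −0.14 each. The Bhlhe41 pair, of one composition, stayed apart at −0.30 and 0.44. In Ciart the 3′ probe, with 25% G and C, went from 0.00 to 0.51 (adjusted p = 0.175). The upstream probe, with 48.3%, went from 0.34 to 0.15 (adjusted p = 0.583), so that the order of the 2 was reversed. After the correction 1 clock repressor probe was called higher and 2 lower.

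**Figure D4:**
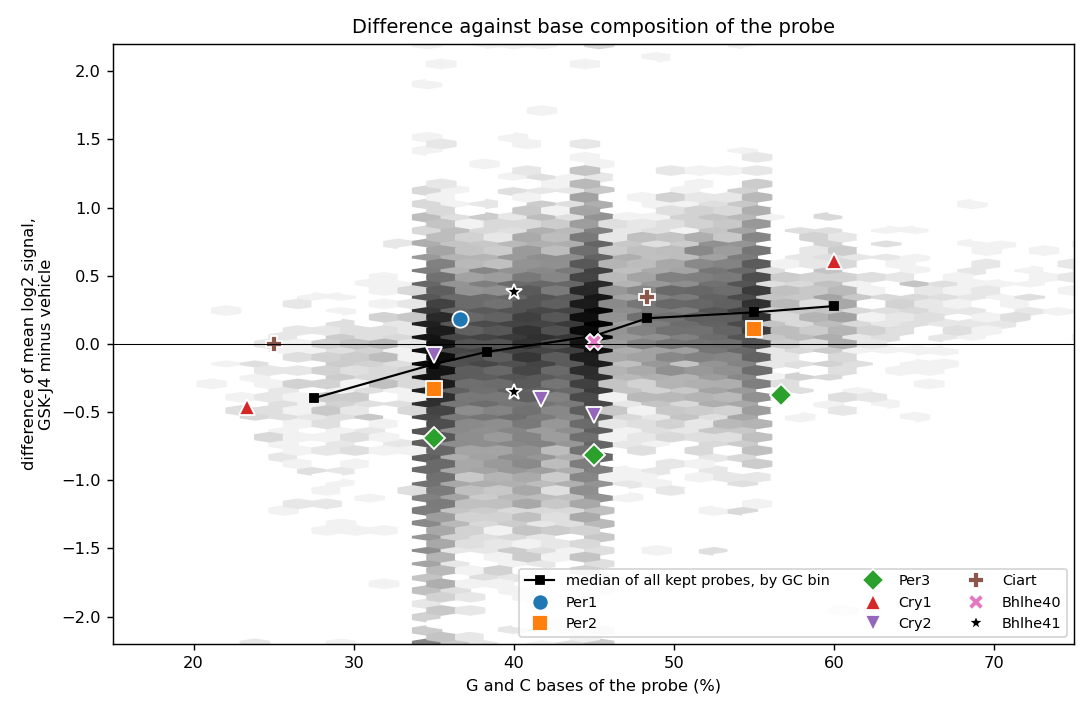
Difference of mean log2 signal, GSK-J4 minus vehicle, against the percentage of G and C bases of the 60-base probe, for all 34444 tested probes (grey, darker where more probes fall, on a logarithmic scale, with differences beyond the axis drawn at its edge) and for the 16 clock repressor probes (coloured). The black line joins the medians of 7 bins of G and C content, which run from −0.40 to 0.28, and the 2 Cry1 probes lie near opposite ends of it.

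Promoter windows of RefSeq (GRCm38.p6), 300 bases long with 250 before and 50 after the start of the gene, were found for 6 of the 8 genes, with 2 windows for Per1. None was found by symbol for Per2 and Bhlhe40. The palindromic E-box CACGTG was present in 4 of the 7 windows, those of Per1, Cry1, Ciart and Bhlhe41, and in 7.15% of 32851 windows of all genes. The D-box, searched as TTATGTAA or TTATGCAA on both strands, was present in the windows of Per3 and Per1 and in 1.66% of all windows. The full cAMP response element TGACGTCA, in 1.79% of all windows, was in none of the 7, and its half-site TGACG, in 20.8% of all windows on either strand, was in those of Per1 (both windows), Cry1 and Cry2. The half-site is a part of the full element. The stretches that hold the E-boxes of Ciart and Cry1 and the D-boxes of Per3 are printed 5′ to 3′ on the strand of the gene with the motif in capitals, since they include the gene called higher, the gene called lower and the gene with most E-boxes.
Ciart, chr3:95882259-95882352, minus strand, 124 to 31 bases before the start: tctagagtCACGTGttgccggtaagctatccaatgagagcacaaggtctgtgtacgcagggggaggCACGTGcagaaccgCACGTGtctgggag
Cry1, chr10:85185101-85185122, minus strand, 68 to 47 bases before the start: ccggtggtCACGTGgggtgcat
Per3, chr4:151044808-151044878, minus strand, 213 to 143 bases before the start: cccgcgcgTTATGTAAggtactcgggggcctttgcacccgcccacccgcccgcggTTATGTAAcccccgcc
Among the genes with an E-box in this window, Cry1 had a probe called higher, and Per1, Ciart and Bhlhe41 had no called probe. Per3, which was called lower with all its probes, had 2 D-boxes and no CACGTG in this window. A match of letters is a description of the window and no evidence of binding.

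The other genes of the clock pathway were described by 6 lists of 31 genes, all of which had a tested probe, 77 probes in all. Of these 2.60% (2 probes) were called higher and 10.4% (8 probes) lower, compared with the 8.39% and 8.42% of all tested probes, and the median difference was −0.08. Without any 1 vehicle array 0 of these were called by adjusted p, and without GSK-J4 array 1 the counts were 1 higher and 5 lower. Among the activators, which drive the clock repressors, the brightest probes of Clock and Arntl had differences of 0.02 (limma adjusted p = 0.853) and −0.43 (adjusted p = 0.0653), and that of Npas2 one of 0.59 (adjusted p = 0.0862). A second Clock probe, A_52_P279391, was called lower at −0.81 (adjusted p = 0.0176), and Arntl2, a relative of Arntl, was lower at −0.42 (adjusted p = 0.0434). The 3 probes of Clock thus did not move alike, as the third had a difference of 0.03.

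The ROR and REV-ERB receptors compete at the RRE elements of Arntl and Cry1, and REV-ERB is the repressor of the pair. Nr1d1 and Nr1d2, which encode REV-ERB, had differences of 0.30 (limma adjusted p = 0.0586) and −0.27 (adjusted p = 0.141) at their brightest probes. Another Rora probe, A_55_P2068006, was called lower at −1.32 (adjusted p = 0.0384) with 2 of the 3 GSK-J4 arrays above background, and the brightest Rora probe had a difference of 0.42 (adjusted p = 0.178). Of the PAR bZIP factors, which bind D-boxes, Dbp had a difference of 0.37 (adjusted p = 0.101), and Tef was called higher at A_52_P173309 with 0.69 (adjusted p = 0.0174) but gave −0.11 at its brightest probe.

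Of genes whose products mark PER and CRY proteins, 1 of 20 tested probes was called lower, and of those that degrade them, 3 of 15. None was called higher, and 8.39% and 8.42% of all tested probes were called higher and lower. Fbxw11, a ligase subunit for PER proteins, had probes called at −0.38 (limma adjusted p = 0.0406) and −1.04 (adjusted p = 0.0263). Its brightest probe gave −0.19, and A_55_P2739404 gave 0.32 (adjusted p = 0.0883). The casein kinase gene Csnk1a1 was called at −0.75 (adjusted p = 0.0433) with 0.22 at its brightest probe. Of the partners of the repressive complex, Sfpq was called lower at A_55_P2517378 with −0.70 (limma adjusted p = 0.022). Wdr5 was called higher at A_52_P7154 with 0.61 (adjusted p = 0.0359) but gave −0.19 at its brightest probe (adjusted p = 0.131).

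**Figure D5:**
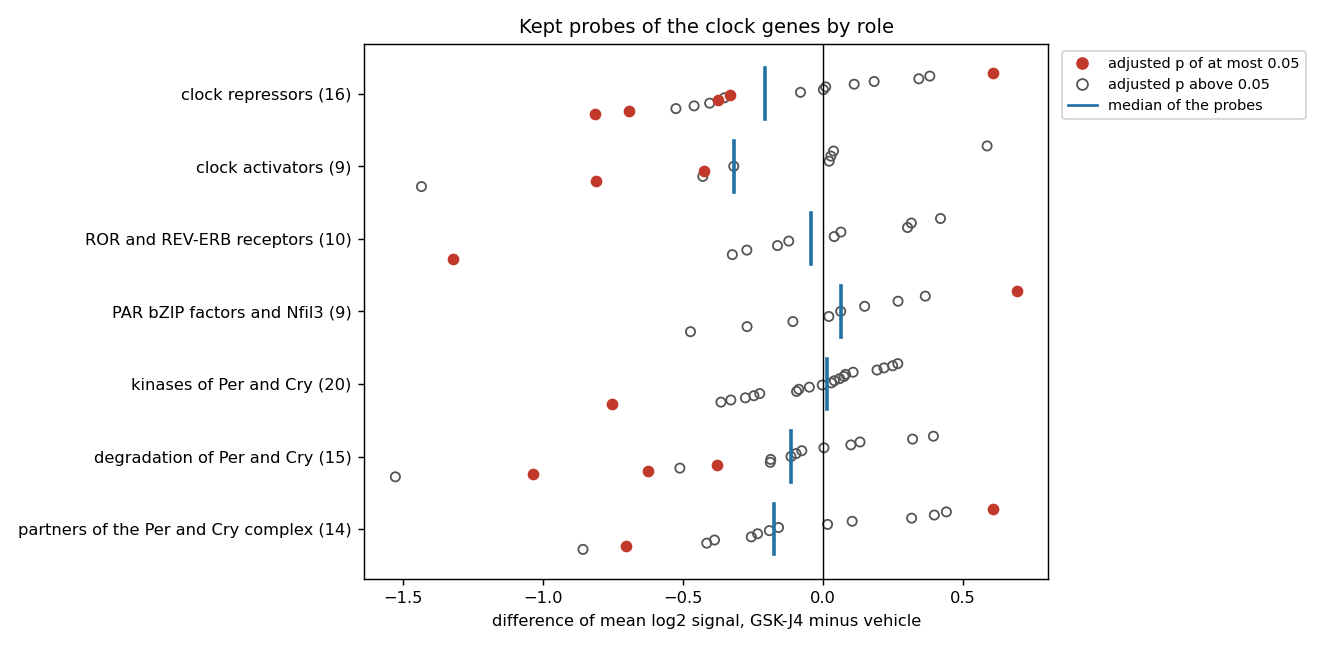
Differences of mean log2 signal, GSK-J4 minus vehicle, of the tested probes of the clock repressors and of the 6 lists of other clock genes, with the number of probes of each list in brackets, filled red where the limma adjusted p was at most 0.05 and with the median of each list as a blue bar. Calls lie on both sides of 0, with 4 of the 5 calls of the repressors and 8 of the 10 of the other lists below it. Of all tested probes 8.39% were called higher and 8.42% lower, and the 4 repressor calls below 0 include the 3 probes of Per3.

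Per1 and Per2 are also induced by neuronal activity and by glucocorticoids, and genes of both responses were examined beside them. Of 9 immediate early genes with 10 tested probes, 0 probes were called by limma after adjustment and 1 had an unadjusted p under 0.05, and Fos had a difference of −0.29 (limma adjusted p = 0.528). Of 4 glucocorticoid responsive genes with 7 tested probes, 1 probe was called higher and 1 lower, where 8.39% and 8.42% of all tested probes were. Sgk1 was the lower one at −0.51 (limma adjusted p = 0.0433). A probe of Zbtb16 was higher at 0.56 (adjusted p = 0.0241), with −0.11 at the brightest Zbtb16 probe. Fkbp5 had a difference of −0.03 (adjusted p = 0.846). Of the 4 tested probes of Kdm6a and Kdm6b, the genes of the enzymes that GSK-J4 inhibits, 1 probe of Kdm6a (A_55_P2738212) was well above background on 3 vehicle arrays and 0 GSK-J4 arrays and was at least 1.39-fold lower (adjusted p = 0.033). A bound sets the mean of the vehicle arrays against the lowest signal measured above background on the GSK-J4 arrays, or the signal of the probe where that is higher. The brightest probes of Kdm6a and Kdm6b had differences of 0.05 and 0.25.

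The probes of other genes with the most similar pattern over the 6 arrays were found by Pearson correlation for the brightest tested probe of each clock repressor. For Cry1 these were LOC102638515 (r = 0.9998) and Lingo2 (0.999), and 3376 tested probes had an r above 0.9 with it. For Per3 they were AK032925 (0.999) and Gm32647 (0.997), for Per2 Ptp4a1 (0.999) and 9330164J24Rik (0.995), and for Bhlhe41 Srsf11 (0.997) and Klf9 (0.996), with 1435 to 2688 probes above 0.9. For Per1 they were Snn (0.998) and Relb (0.998), with 778 such probes. Where the groups overlapped, fewer probes were alike, with 100 for Cry2 (Sec23b at 0.99 and Stk39 at 0.98), 78 for Ciart (Gm31704 and Palld, both 0.98) and 57 for Bhlhe40 (Lypd2 at 0.99 and Gpbp1l1 at 0.97). The 6 arrays fall into 2 groups, so a high r mostly repeats the separation of the groups and is given as a description.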

How the data were processed

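Hypothalamic RNA of 6 samples was measured on one-colour arrays, scanned and extracted by the authors with Feature Extraction 10.7.1.1. The deposited log2 values are described in the methods as quantile normalized in GeneSpring. Sorted columns differed by at most 0.00424, and each column had a median of 5.74 and correlated with the log2 of its own array's deposited intensity at 0.999 or above. The intensity of each spot also came with a flag for signal well above background. 0 columns were left unassigned, and arrays of a group correlated at 0.978 to 0.995. Probe coordinates are those of the files (mm9). Authors' fold changes were not used.

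Groups follow the deposited labels. Clock repressor probes and all lists were chosen with earlier results of these data known. Groups were compared in R 4.3.3 with limma 3.58.1 (lmFit, eBayes, two-sided, no covariate) over the 34444 tested probes. Named beside the repressors are probes of the pathway, immediate early and glucocorticoid lists with an adjusted p of at most 0.05, the brightest probes of Clock, Arntl, Npas2, Nr1d1, Nr1d2, Dbp, Fos and Fkbp5 (some genes of the lists are counted but not reported one by one here), and the 2 most similar probes for each repressor; other probes of these genes and those of Kdm6a and Kdm6b were added after their values were seen. The fit was tested on simulated data. The exact permutation test enumerated 20 orders. GC correction used lowess with a span of 30% of the probes. A summed level is the log2 of the sum of the linear signals of the brightest tested probes. The number of arrays limits the precision. Alternatives were other normalizations, background corrections, filters, variance models, t-tests, a replicate block, other rules for several probes, and leaving out each array.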

Additional observations from a re-analysis of the deposited data

How the results depend on the processing

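The 5 calls rested on few arrays. The clock repressor probes called higher and lower by adjusted p (1 and 4) became 0 and 0 without any 1 vehicle array, 1 and 1 without GSK-J4 array 1 or 2, and 1 and 4 without GSK-J4 array 3 (range 0 to 1 higher, 0 to 4 lower), and by the methods' rule (1 and 2) 0 to 1 and 2 to 3. Those called without GSK-J4 array 3 were not the same 5 probes. Per3 A_66_P137063 was called in none of the fits without 1 array (lowest limma adjusted p = 0.0555). Cry2 A_55_P2721990 gained a call without GSK-J4 array 3, at −0.66 (limma adjusted p = 0.0458). The pathway counts (2 and 8 by adjusted p, 3 and 9 by the methods' rule) ranged over these fits from 0 to 3 and 0 to 10, and from 1 to 4 and 7 to 10. The same replicate numbers were used in both groups, but same-numbered arrays deviated together at r of 0.01, 0.03 and 0.08, so they were not treated as pairs. With the replicate block 0 and 0 repressor probes and 0 and 0 pathway probes were called by adjusted p, as among all probes (0 of 34444), against 1 and 2 and 3 and 8 by the methods' rule, and with block and GC correction also 0 in each, with 0 repressors higher and 5 pathway probes lower by the methods' rule. The cause of these changes was not tested.

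With 75th percentile scaling, repressor calls were 2 and 4 (Per1 and Bhlhe41 A_55_P2503365 gained a call and Per2 A_55_P2737144 lost it), 0 were higher by the methods' rule, and 8 pathway probes were called higher. With normexp, 0 repressor probes were higher and 1 lower by the methods' rule, and the pathway gave 13 called lower and 0 and 4 by the methods' rule. Without a filter 1 repressor probe was called lower and 1 and 4 pathway probes were called. With intensity trend and robust variance 4 and 13 pathway probes were called, and with array weights 0 repressor probes and 1 pathway probe were higher by the methods' rule. The methods' t-test with unequal variances called 0 and 0 repressor and 0 and 0 pathway probes by adjusted p (1 and 2, and 2 and 4, by the methods' rule, where all probes gave 1139 and 1799 against 1651 and 2706 with limma), and with equal variances 2 repressor probes lower and 1 and 3 pathway probes. GC correction gave 2 repressors lower, 0 higher by the methods' rule and 5 pathway probes lower. Counted as genes by the brightest probe, 2 repressors were called lower, 0 by the methods' rule, and the pathway gave 0 and 1, and 1 and 0. By the mean of the probes, 0 and 1 repressors were called, 0 and 1 by the methods' rule, and 0 and 2, and 1 and 1, of the pathway.

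Of 295 values of single probes under an alternative, 228 kept direction and side of the threshold, 45 lost the call, 4 gained one and 18 changed sign, all in probes that were not called. Per2 A_52_P536869 became −0.0142 with 75th percentile scaling and −0.14 with GC correction, with or without the block, where Cry1 A_52_P420500 became 0.11, Cry2 A_55_P2016540 0.11 and Bhlhe40 −0.045. With 75th percentile scaling Cry2 A_55_P2016540 became 0.21 and Ciart A_52_P63343 −0.13, and with array weights Ciart A_52_P63343 became −0.0847 and Bhlhe40 −0.0118. Leaving out single arrays, Ciart A_52_P63343 ranged from −0.19 to 0.17 and Bhlhe40 from −0.0695 to 0.0886. With GC correction Ciart A_52_P63343 rose to 0.51 and was not called (limma adjusted p = 0.175). The 5 called differences kept their sign under every alternative run, from −0.88 to −0.70, −0.63 to −0.32 and −0.82 to −0.26 for the Per3 probes in their order from the 3′ end, from −0.38 to −0.14 for Per2 A_55_P2737144 and from 0.33 to 0.65 for Cry1 A_55_P2880103. Signal over background limits the dim probes, here Cry1 A_52_P420500, the second Per1 probe, Kdm6a A_55_P2738212 and Rora A_55_P2068006.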
